A study of Mus musculus with 9 samples.

Results

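The aminoacyl-tRNA synthetases are the enzymes that join each amino acid to its transfer RNA. Their genes were taken by symbol alone, as the protein-coding genes whose symbol is 1 letter followed by ars, with or without a final 1 or 2, together with Farsa, Farsb and Eprs. This gave 37 of the 55367 genes in the count table, of which 20 encode cytosolic enzymes and 17, with symbols ending in 2, encode mitochondrial enzymes. All 37 passed the filter on low counts, and 15365 genes passed it in all. The samples were 9 whole mouse osteosarcoma (OS) tumors from genetically engineered mouse models (GEMMs), profiled by RNA-Seq to compare tumors driven by loss of p53 with tumors that also carry an activated Myc allele. The 4 p53-driven tumors, named F187, F325, F331 and F368 in the table, had the genotype Col2.3-Cre Trp53 fl/+, in which a promoter fragment active in osteoblasts drives Cre and 1 of the Trp53 alleles is floxed. The 5 Myc-knockin tumors, named M351, M408, M9, M624 and M664, carried the same Cre and floxed p53 allele (p53 fl/+) plus a Lox-Stop-Lox c-MycT58A allele, so both groups share the Cre and the floxed Trp53 allele and differ by the Myc allele. No agent is named for either group, and the labels give no age. Nothing in the labels says how many mice the tumors came from, so the p-values measure the spread between these tumors only.

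A synthetase recognizes 1 amino acid and the transfer RNAs for it, and translation stops at the codons of an amino acid whose enzyme is missing. Mitochondria read their own messages with a separate set of enzymes, encoded in the nucleus and imported, and in mammals Gars and Kars supply both compartments from a single gene. Several cytosolic enzymes are held together with the scaffold proteins Aimp1, Aimp2 and Eef1e1 in the multisynthetase complex. The transcription factor ATF4 is known to raise many cytosolic synthetase genes when amino acids are short, and MYC is known to raise genes for ribosomes and translation, binding at E-boxes.

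Promoter sequences, 250 bases before to 50 bases after the start site, were matched for 27 of the 37 genes in RefSeq (GRCm38.p6). Both strands were searched for the E-box CACGTG, the E-box variant CACGCG (complement CGCGTG) and GATGCAA (complement TTGCATC), the core of the amino acid response element bound by ATF4. The core was found in 4 of the 27 genes, or 14.8%, against 2.53% of all 32851 promoters in the table. Those 4 promoters are printed because they group cytosolic synthetases whose expression is followed below, and capitals mark the core and the E-box letters. Aars (chr8:111033592-111033891, plus strand) has the core 112 bases before the start site. Iars (chr13:49681880-49682179, plus strand) has it 7 bases after the start. Tars (chr15:11399609-11399908, minus strand) has it 15 bases before the start, with an E-box and an E-box variant after the start. Yars (chr4:129189653-129189952, plus strand) has the core 4 bases after the start.
Aars: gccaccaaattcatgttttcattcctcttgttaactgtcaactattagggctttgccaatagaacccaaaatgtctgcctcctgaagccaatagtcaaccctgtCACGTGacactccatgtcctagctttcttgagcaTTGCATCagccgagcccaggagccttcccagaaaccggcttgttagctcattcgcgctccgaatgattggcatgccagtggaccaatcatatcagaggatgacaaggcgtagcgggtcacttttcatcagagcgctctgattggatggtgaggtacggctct
Iars: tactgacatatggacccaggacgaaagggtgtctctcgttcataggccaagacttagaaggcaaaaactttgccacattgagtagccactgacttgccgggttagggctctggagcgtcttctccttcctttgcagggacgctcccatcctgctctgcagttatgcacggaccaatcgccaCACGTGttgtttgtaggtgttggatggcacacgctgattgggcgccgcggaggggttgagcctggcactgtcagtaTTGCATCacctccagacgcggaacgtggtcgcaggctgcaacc
Tars: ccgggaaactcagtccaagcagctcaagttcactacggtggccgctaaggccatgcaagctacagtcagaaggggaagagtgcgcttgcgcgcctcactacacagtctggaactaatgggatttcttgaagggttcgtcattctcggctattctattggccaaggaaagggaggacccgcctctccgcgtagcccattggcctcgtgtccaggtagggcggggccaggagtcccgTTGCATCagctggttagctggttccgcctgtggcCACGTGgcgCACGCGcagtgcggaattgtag
Yars: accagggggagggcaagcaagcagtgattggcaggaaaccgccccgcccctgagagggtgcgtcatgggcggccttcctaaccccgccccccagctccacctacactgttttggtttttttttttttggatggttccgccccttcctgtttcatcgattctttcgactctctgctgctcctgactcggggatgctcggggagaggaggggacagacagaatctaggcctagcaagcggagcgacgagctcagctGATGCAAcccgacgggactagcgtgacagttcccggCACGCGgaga
The E-box was found in 5 of the 27 genes (Aars, Ears2, Farsb, Iars and Tars), or 18.5%, against 7.15% of all promoters. The E-box variant was found in 7 (Eprs, Farsa, Iars2, Mars1, Mars2, Tars and Yars), or 25.9%, against 9.27%. A match describes the letters in this window and does not show that a factor binds there.

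Libraries differed in ways that touch the counts of these genes. The totals ran from 2716322 counts in M351 to 17073285 in M624, and 3 counts, taken as the floor of detection, stood for 0.114 to 2.39 CPM (counts scaled to a common library total). In 4 libraries, 13 satellite repeat genes took a large share of the counts: 44.3% in F187, 67.9% in M351, 23.2% in M408 and 81% in M9, against at most 0.0242% in the other 5. Genomic background, estimated from counts over 1538 chemosensory receptor genes, made up 25.4% of the mitochondrial synthetase counts in M9, 15% in M351 and 10.6% in F187, and at most 0.793% in the others. Libraries M624 and M664 stood apart in another way: Rn7sk, a small nuclear RNA without a poly(A) tail, was at 5.33 and 9.32 CPM there and at 8858 CPM or more elsewhere. The results are therefore also given without M624 and M664 (7 tumors) and for the 5 tumors left without the 4 satellite-rich libraries, where the contrast of Myc allele and the Rn7sk difference cannot be told apart. In the 7 tumors all Myc-knockin libraries, M351, M408 and M9, are satellite-rich, against F187 alone among the p53-driven ones. There the Myc allele and the satellite share cannot be fully told apart. The floor covers counting error only.

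Myc itself checked the labels. It was at 43.5 to 67.1 CPM in the p53-driven tumors and at 144 to 1045 CPM in the Myc-knockin tumors, with no overlap, and rose by a log2 fold change of 3.41 ± 0.59 (SE, adjusted p = 0.0217, edgeR). With F325, F331 or F368 left out the adjusted p was 0.0782 to 0.0909, with log2 fold changes of 3.33 to 3.54. All CPM values of genes are normalized by the trimmed mean of M values (TMM), and fold changes are Myc knockin over p53 driven. Genes are called here when the adjusted p lay under 0.05 and the fold exceeded 1.5.

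Fold changes in the Myc-knockin tumors were larger for the mitochondrial synthetases as a list than for the cytosolic list. All 17 mitochondrial genes had a positive log2 fold change, from 0.27 for Rars2 to 2.01 for Lars2, with a median of 1.06. The 20 cytosolic genes split into 13 positive and 7 negative, from -0.86 for Gars to 1.73 for Farsa, with a median of 0.55. Over all genes tested, 56.2% were positive and the median was 0.14. Most single genes did not pass the threshold. Of the 37, 1 was called higher (Yars2), or 2.7%, against 2.26% of all genes tested, and none was called lower. In both directions together, 5.27% of all genes were called. The members' share of calls was therefore close to the background at this threshold.

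**Figure D1:**
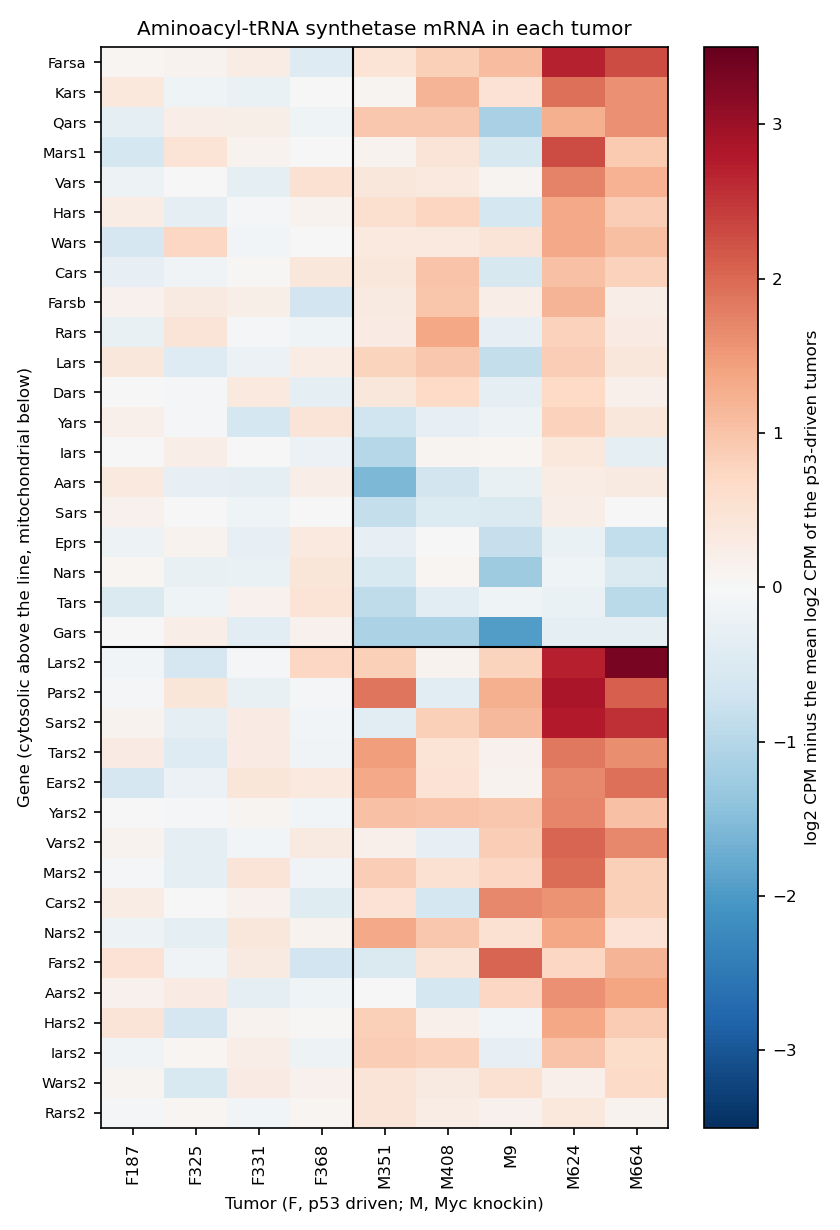
Each cell is the log2 TMM-normalized CPM of 1 gene (vertical axis) in 1 tumor (horizontal axis) minus the mean log2 CPM of that gene in the 4 p53-driven tumors, with red above and blue below that mean. The mitochondrial genes below the line are mostly red in the 5 Myc-knockin tumors, most strongly in M624 and M664, while the cytosolic genes above it run from red (Farsa) to blue (Gars).

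By other criteria the mitochondrial list held a larger share of genes than the background, and the cytosolic list was close to it. With an adjusted p under 0.10 in edgeR, 9 of the 37 genes (24.3%) were higher, against 7.82% of all genes: 2 cytosolic genes, Farsa and Kars, and 7 mitochondrial genes, among them Tars2, Sars2, Lars2, Mars2, Pars2 and Yars2. That is 10% of the cytosolic and 41.2% of the mitochondrial genes. An unadjusted p under 0.05 was reached by 16 of the 37 (43.2%), against 26.8% of all genes, and the split was 25% of the cytosolic and 64.7% of the mitochondrial genes. DESeq2, at the thresholds used for edgeR, called 9 of 37 (24.3%) higher, against 10.1% of all genes, which was 10% of the cytosolic and 41.2% of the mitochondrial genes. Every Myc-knockin tumor lay above every p53-driven tumor for 5 of the 37 (13.5%: Farsa, Mars2, Nars2, Rars2 and Yars2), against 5.41% of all genes, which was 5% of the cytosolic and 23.5% of the mitochondrial genes. Genomic background was not subtracted from these CPM values, and the separation of Farsa, Mars2, Nars2 and Rars2 depended on it, as given below. None of the 37 had every Myc-knockin tumor below every p53-driven tumor, which 7.54% of all genes had. The difference between the lists was not tested.

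Averaged over the genes of a list, the tumors showed the same order. The mean log2 CPM of the 17 mitochondrial genes was 3.33 ± 0.15 (SD, n = 4) in the p53-driven tumors, from 3.14 to 3.47. In the Myc-knockin tumors it was 4.25 ± 0.52 (SD, n = 5), from 3.62 in M408 to 4.93 in M624, so the groups did not overlap. The mean over the 20 cytosolic genes was 6.08 ± 0.08 (SD, n = 4) and 6.33 ± 0.48 (SD, n = 5), from 5.73 in M9 to 6.97 in M624, and the groups overlapped. These means weight each gene equally and were given no test. Genomic background was not subtracted from them, and it made up 25.4% of the mitochondrial synthetase counts in M9, 15% in M351 and 10.6% in F187. Whether the groups stay apart without those reads was not tested. In whole tumors, fewer cells of a type and less RNA per cell cannot be told apart.

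Among the mitochondrial enzymes, Yars2, which charges mitochondrial tyrosine transfer RNA, was the called gene. It lies at chr16:16302965-16309640 on the plus strand (mm10). Its CPM was 11.1, 10.7, 11.6 and 10.2 in F187, F325, F331 and F368, and 22.2, 21.8, 20.7, 35.7 and 22.2 in M351, M408, M9, M624 and M664. The p53-driven tumors were nearly level, and the lowest Myc-knockin tumor stood well above the highest of them. Yars2 rose by a log2 fold change of 1.18 ± 0.27 (SE, adjusted p = 0.0386), from a mean of 10.9 ± 0.59 (SD, n = 4) to 24.5 ± 6.3 (SD, n = 5) CPM. Without M624 and M664 it was still called, at 1.05 (adjusted p = 0.0394). The call was lost, with adjusted p from 0.0529 to 0.155, when any of F187, F325, F331, F368, M351 or M624 was left out. The fold change then kept its direction, between 1.06 and 1.25 over the 9 omissions.

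The largest mitochondrial fold changes belonged to Lars2, Pars2 and Sars2, which charge leucine, proline and serine transfer RNAs, and each was highest in M624 and M664. Lars2 was at 60, 43, 62.4 and 107.6 CPM in F187, F325, F331 and F368, and at 114.5, 70.1, 111.5, 422.9 and 650.6 CPM in M351, M408, M9, M624 and M664. M408 lay below F368, so the groups overlapped. The log2 fold change of 2.01 ± 0.67 (SE) had an adjusted p of 0.0895, and was 0.58 (adjusted p = 0.301) without M624 and M664. An annotated ribosomal RNA gene, CT010467.1, chosen after its values were seen, moved with it: outside the satellite genes it stood at 11950 and 23670 CPM in M624 and M664 and at 3519 to 6222 CPM in the other 7. The part of ribosomal RNA reads in the Lars2 value was not tested.

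Sars2 was at 3.56, 2.65, 3.98 and 3.04 CPM in F187, F325, F331 and F368, and at 2.46, 5.86, 7.17, 22.4 and 19.3 CPM in M351, M408, M9, M624 and M664. M351 was the lowest of all 9 tumors, on 4 counts of which 3.7 were expected from genomic background. In M9, 4.07 of the 9 Sars2 counts were expected from it. The log2 fold change was 1.84 ± 0.60 (SE, adjusted p = 0.0881), and 0.71 in the 7 tumors. Pars2 was the lowest of the family in reads, at 1.58, 2.26, 1.38 and 1.58 CPM in F187, F325, F331 and F368, and at 6.16, 1.28, 3.98, 12.1 and 7.13 CPM in M351, M408, M9, M624 and M664. M408 lay below every p53-driven tumor, and the Pars2 counts of F187 and M9, 4 and 5, were near the floor. Of these counts, 2.19 in F187 and 3.8 in M9 were expected from genomic background. Without those reads M9 would no longer lie above every p53-driven tumor. Its log2 fold change was 1.86 ± 0.64 (SE, adjusted p = 0.0972), and it did not pass the count filter without M624 and M664.

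Of the 4 mitochondrial genes without overlap between the groups, Yars2 is given above. Mars2, for methionine, ran from 11.7 to 20 CPM in the p53-driven tumors and from 21.1 to 55.9 CPM in the Myc-knockin tumors, with a log2 fold change of 1.06 (adjusted p = 0.0905). Nars2, for asparagine, ran from 5.6 to 9.34 and from 10.1 to 18.1 CPM, with a log2 fold change of 0.95 (adjusted p = 0.105). In M9, 8.56 of the 13 Nars2 counts and 13.9 of the 30 Mars2 counts were expected from genomic background, and in M351 7.77 of 29 and 12.6 of 43. Without those reads M9 would lie below the highest p53-driven tumor in both genes, so the separation of their groups depends on background reads. Rars2, for arginine, was the steadiest, at 16.9 to 19.1 and 19.8 to 24.6 CPM, with a log2 fold change of 0.27 (adjusted p = 0.487), so its groups did not overlap but it was not called. In M9, 3.4 of the 25 Rars2 counts were expected from genomic background. M9, at 19.9 CPM, lay above F325, at 19.1 CPM, by less than those reads stand for, so this separation depends on them too.

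Tars2, Ears2 and Vars2, for threonine, glutamate and valine, had log2 fold changes of 1.24, 1.22 and 1.16 (adjusted p from 0.0755 to 0.149). In each of these genes at least 1 Myc-knockin tumor lay within the range of the p53-driven tumors. Cars2, Fars2, Aars2, Hars2, Iars2 and Wars2 had log2 fold changes from 0.40 to 0.98 and adjusted p from 0.166 to 0.419. Per kilobase of exon the mitochondrial levels were low, with group means from 0.55 (Pars2) to 6.76 (Iars2) CPM per kilobase in the p53-driven tumors.

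**Figure D2:**
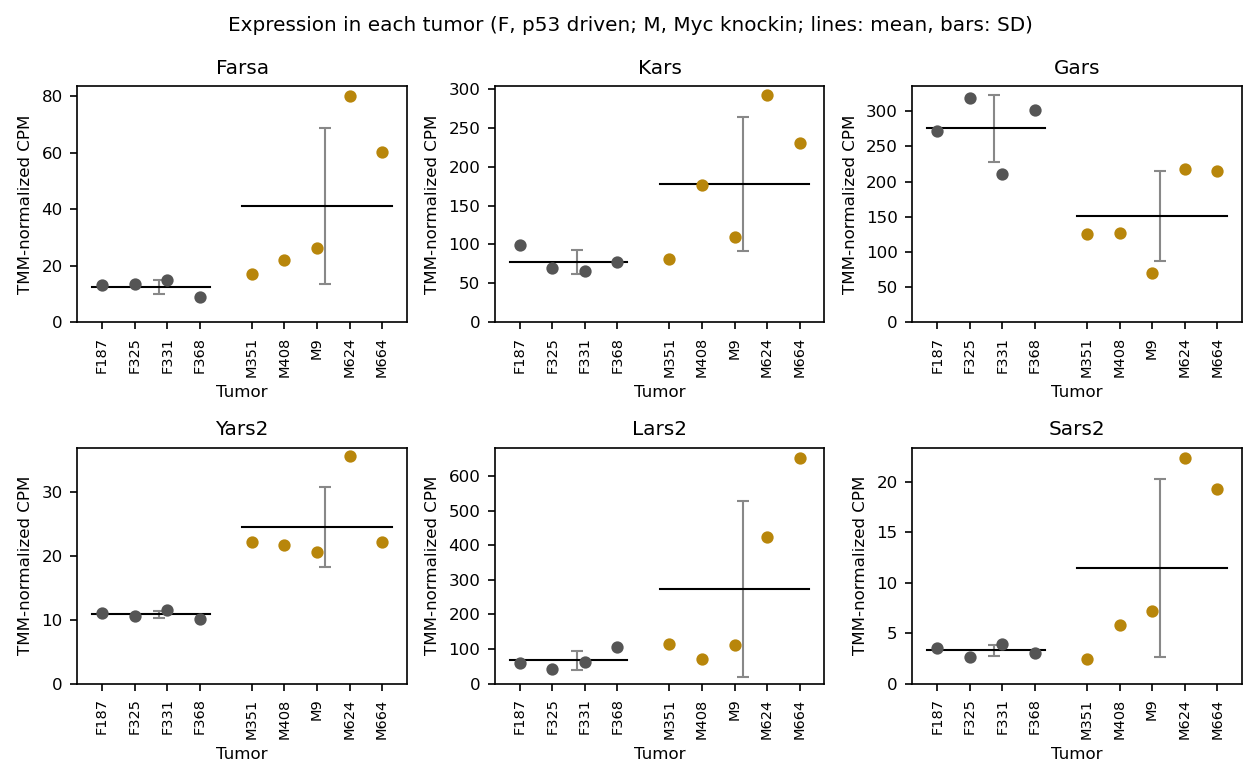
Points are TMM-normalized CPM (vertical axis) in each tumor (horizontal axis, F for p53 driven and M for Myc knockin) for 6 genes, lines are group means and bars are the SD. Yars2 and Farsa have every Myc-knockin tumor above the p53-driven tumors, with genomic background not subtracted. For Farsa this separation depends on background reads in M351. In Lars2 and Sars2 M624 and M664 lie far above the other 7 tumors, and Gars is lowest in M9 at 70.1 CPM.

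Among the free cytosolic enzymes, Farsa had the largest fold change. Farsa and Farsb encode the alpha and beta subunits of the cytosolic phenylalanine enzyme. Farsa was at 13, 13.4, 14.8 and 9 CPM in F187, F325, F331 and F368, and at 17.2, 22.2, 26.3, 80.1 and 60.3 CPM in M351, M408, M9, M624 and M664. All 5 Myc-knockin tumors lay above the p53-driven tumors, with M624 and M664 far above the rest. In M351, 5.06 of the 28 Farsa counts were expected from genomic background. Without those reads M351 would lie below F331, so the separation of the groups depends on them. The log2 fold change was 1.73 ± 0.47 (SE, adjusted p = 0.0559), just short of the threshold on adjusted p, and was 0.86 (adjusted p = 0.0952) without M624 and M664. Its partner subunit Farsb had a log2 fold change of 0.61 (adjusted p = 0.236), with 23.9 to 47.8 and 45.4 to 88 CPM in the p53-driven and Myc-knockin tumors. The difference between the subunits was not tested.

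Gars, the glycine enzyme of both compartments, went the other way. It was at 272, 318, 210 and 302 CPM in F187, F325, F331 and F368, and at 126, 127, 70.1, 218 and 215 CPM in M351, M408, M9, M624 and M664. The groups met only at F331, where both M624 and M664 were a little higher. Its log2 fold change was -0.86 ± 0.36 (SE, adjusted p = 0.150), and -1.29 (adjusted p = 0.0541) without M624 and M664, where every Myc-knockin tumor lay below every p53-driven tumor. Neither value passed the threshold, while limma-voom with quality weights called Gars lower, at -1.31 (adjusted p = 0.0134). Kars, the lysine enzyme, also serves both compartments and belongs to the multisynthetase complex. It was at 99.5, 69.1, 65.6 and 77.2 CPM in F187, F325, F331 and F368, and at 81.9, 176.5, 109.1, 292.3 and 230.8 CPM in M351, M408, M9, M624 and M664. M351 was the only Myc-knockin tumor within the p53-driven range. The log2 fold change was 1.20 ± 0.39 (SE, adjusted p = 0.0826), so these 2 genes with the same double role had point estimates on opposite sides of 0.

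Tars and Nars, for threonine and asparagine, were the other cytosolic genes with the largest values against the list's median. Tars was at 90.5, 115, 142 and 177 CPM in F187, F325, F331 and F368, and at 68.9, 96.5, 116, 108 and 65.7 CPM in M351, M408, M9, M624 and M664. The groups overlapped widely, and the log2 fold change was -0.53 ± 0.29 (SE, adjusted p = 0.264). Nars was at 179, 142, 147 and 229 CPM in F187, F325, F331 and F368, and at 119, 179, 72.5, 154 and 122 CPM in M351, M408, M9, M624 and M664, with a log2 fold change of -0.43 ± 0.31 (SE, adjusted p = 0.399). Both genes kept a negative fold change in the 7 tumors (-0.43 and -0.42) and in the 5 (-0.73 and -0.31). Sars, Aars and Yars, for serine, alanine and tyrosine, had log2 fold changes of -0.27, -0.26 and 0.07, and the other free cytosolic genes, Cars, Wars, Hars and Vars, of 0.63 to 0.86. The 12 free cytosolic genes had a median of 0.34, with 7 positive.

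The 8 enzymes of the multisynthetase complex had 6 positive log2 fold changes and a median of 0.55. Besides Kars, the largest was in Qars, for glutamine, which was at 28, 41.2, 40.7 and 31.7 CPM in F187, F325, F331 and F368, and at 67.7, 67.8, 15.9, 82.6 and 105.7 CPM in M351, M408, M9, M624 and M664. All Myc-knockin tumors but M9 lay above the p53-driven tumors, and M9 lay below all of them. Its log2 fold change was 0.95 ± 0.43 (SE, adjusted p = 0.183), and Qars was called without M9 (adjusted p = 0.0264). Mars1, Rars, Lars and Dars, for methionine, arginine, leucine and aspartate, had log2 fold changes of 0.94, 0.57, 0.52 and 0.36. The Mars1 value was 0.35 without M624, where Mars1 stood at 165.9 CPM against 23.1 to 64.5 in the other Myc-knockin tumors, and 0.08 without M624 and M664. Iars and Eprs, for isoleucine and for glutamate and proline, had log2 fold changes of -0.10 and -0.41. None of these 8 genes was called. By structural class of the catalytic domain, the 10 class I cytosolic genes had a median of 0.60 with 8 positive, and the 10 class II genes a median of 0.05 with 5 positive. Eprs, which serves both glutamate and proline, was counted in class I alone.

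Levels within the cytosolic list, as CPM per kilobase of exon, spanned a wide range in the p53-driven tumors. Gars had the highest group mean, at 88.3, followed by Nars at 40, Sars at 24.4, Iars at 22.7, Tars at 22.3 and Eprs at 21.2. These 6 genes had negative log2 fold changes, but the p53-driven values that set this order also enter the fold change, so the 2 are not independent. Aars, also negative, had a lower mean of 8.47. The lowest means were in Farsa at 2.77, Cars at 3.6 and Qars at 5.39, all with positive log2 fold changes. In the Myc-knockin tumors Gars was still the highest at 48.5, followed by Kars at 39.9, Nars at 29.7, Vars at 29.4, Rars at 27.4 and Hars at 26.55. Among these highest genes only Gars and Nars had negative log2 fold changes. Cars was the lowest there at 5.51. The group means of a gene near another in this order were not tested against each other, since exon lengths were taken from an annotation that may differ from that behind the counts. Some members share exon bases with a neighbor, among them Mars1 with Ddit3 (68 bases) and Iars2 with Rab3gap2 and an antisense RNA (2148 bases), both on the opposite strand, and Aars with the same-strand Exosc6 and an opposite-strand microRNA gene (1403 bases). Without the strand setting of the counting, the reads of opposite-strand partners cannot be told apart. Reads over the bases shared with the same-strand Exosc6 cannot be told apart by strand under any setting.

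**Figure D3:**
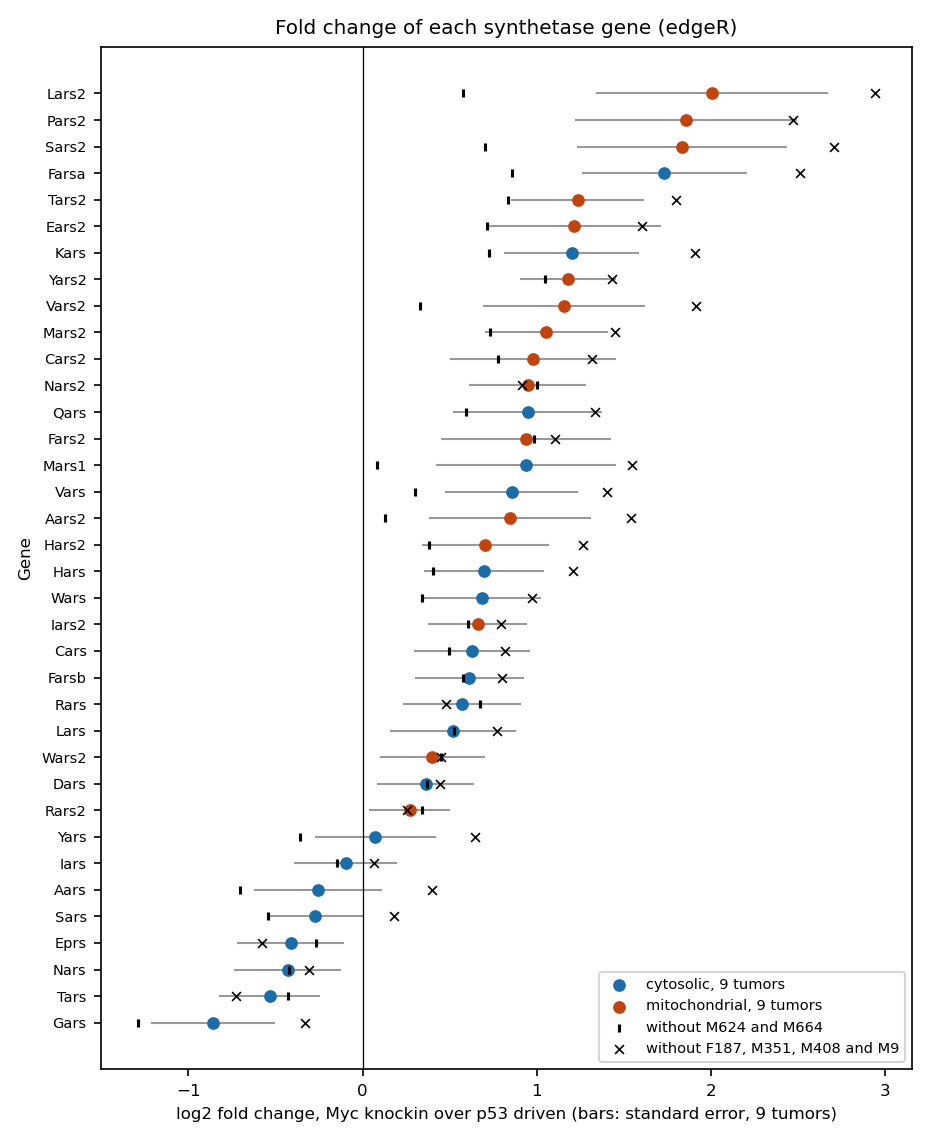
Points are the edgeR log2 fold change, Myc knockin over p53 driven, of 36 genes over the 9 tumors, colored by compartment, with bars for the standard error. Ticks (7 tumors, without M624 and M664) lie mostly left of the crosses (5 tumors, without F187, M351, M408 and M9), and the lowest point is Gars at -0.86.

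For the same amino acid, the mitochondrial gene was compared with the cytosolic gene over 17 pairs. The mitochondrial log2 fold change was the larger in 14 pairs, and the exceptions were Fars2 against Farsa, Rars2 against Rars and Wars2 against Wars. The margin ran from 0.01 for Hars2 over Hars to 2.27 for Pars2 over Eprs. Hars and Hars2 lie head to head on opposite strands and share 195 exon bases. In the 7 tumors the mitochondrial value was the larger in 14 of 16 pairs, with Hars2 and Rars2 the exceptions, and in the 5 tumors in 13 of 17. Pairs share their tumors, and Ears2 and Pars2 share the partner Eprs, so no test was run on these counts.

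**Figure D4:**
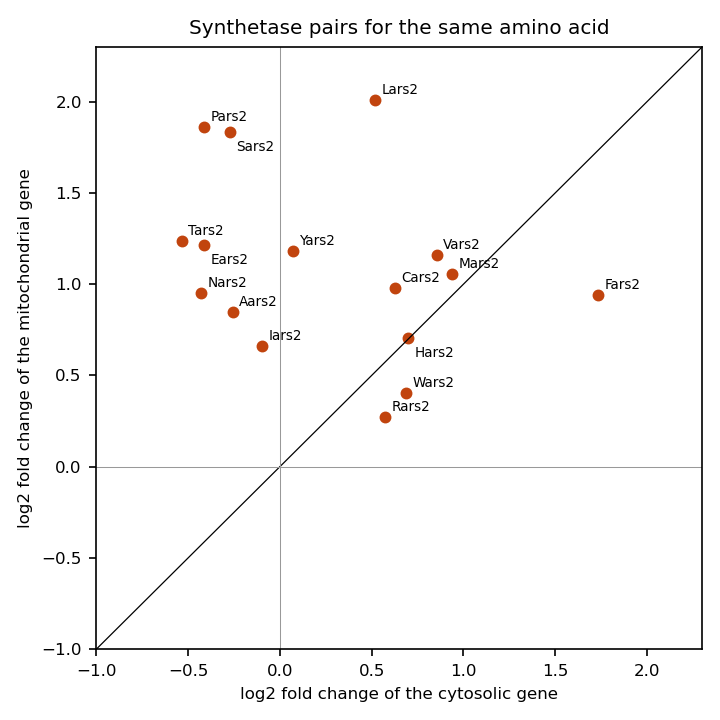
Each of the 16 points is 1 amino acid, with the log2 fold change (Myc knockin over p53 driven, 9 tumors) of the cytosolic gene on the horizontal axis and of the mitochondrial gene on the vertical axis. Of these points 13 lie above the diagonal of equal change, with Hars2 almost on it and Fars2, Wars2 and Rars2 below.

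The 2 subsets of tumors gave different counts of calls. In the 7 tumors without M624 and M664, Yars2 was again the 1 gene of the family called, against 1.8% of all genes called higher, with medians of 0.32 for the cytosolic and 0.71 for the mitochondrial list (16 tested). In the 5 tumors F325, F331, F368, M624 and M664, 17 of the 37 were called higher, 6 cytosolic and 11 mitochondrial, or 45.9%, against 15.7% of all genes. None was called lower there, against 12.1% of all genes. The medians were 0.71 and 1.45, with Lars2 at 2.94, Sars2 at 2.71 and Farsa at 2.51. In all 3 sets of tumors the mitochondrial median was above the cytosolic one and no mitochondrial gene tested was negative.

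The 4 cytosolic genes with the amino acid response core, printed above, had log2 fold changes from -0.53 (Tars) to 0.07 (Yars), with a median of -0.18. In the 7 tumors they ran from -0.70 to -0.15 (median -0.39), and in the 5 tumors from -0.73 to 0.65 (median 0.23). The sign of the median depended on which libraries were compared, while Tars was negative in all 3 sets. The 7 genes with the E-box variant ran from -0.53 to 1.73 with a median of 0.66, and the 5 with the E-box from -0.53 to 1.22 with a median of -0.10. None of these promoter groups had a called gene over the 9 tumors. A list of 23 genes of the ATF4 response, which covers amino acid synthesis and import, had a median of 0.13 with 0 called, of -0.36 with 0 called in the 7 tumors, and of 0.78 with 6 called higher (26.1%, against 15.7% of all genes) in the 5. Atf4 itself, chosen after its values were seen, had a log2 fold change of -0.83 (adjusted p = 0.109).

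The scaffold genes of the multisynthetase complex, Aimp1, Aimp2 and Eef1e1, had log2 fold changes of 0.72, 1.38 and 1.02, and none of the 3 was called (adjusted p = 0.133, 0.0771 and 0.0850). Of 20 genes tested for transfer RNA end processing and export, 2 rose (10%), against 2.26% of all genes. Elac2, which trims the 3′ end of transfer RNA precursors, rose by 2.01 ± 0.44 on the log2 scale (SE, adjusted p = 0.0328). In the 7 tumors it had a log2 fold change of 1.53 and the call was lost (adjusted p = 0.0569). It was between 11.1 and 14.7 CPM in the p53-driven tumors and between 14.3 and 94.8 CPM in the Myc-knockin tumors, of which M9 alone lay within the p53-driven range. Rpp40, a protein of RNase P, which trims the 5′ end, rose by 2.33 ± 0.49 on the log2 scale (SE, adjusted p = 0.0301). It was between 2.31 and 4.74 CPM in the p53-driven tumors and between 8 and 36.3 CPM in the Myc-knockin tumors, with no overlap, and was called without M624 and M664 as well. The list's median was 0.86, against 0.47 with 1 called in the 7 tumors and 1.26 with 9 of 21 (42.9%) called higher in the 5, where 15.7% of all genes were.

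No gene was called among the 7 of cytosolic elongation (median 1.22), the 4 of mitochondrial elongation (0.76), the 10 RNA polymerase III regulators and transfer RNA gene factors (0.32), the 8 tested for proofreading and release (0.79), the 6 for selenocysteyl-tRNA (0.55) or the 4 for transamidation and formyl-methionine (0.32). The elongation medians changed with the libraries compared: without M624 and M664 they were 0.41 for the cytosolic and 0.17 for the mitochondrial list with none called, and in the 5 tumors 1.75 and 1.23 with 4 of 7 and 2 of 4 called higher, against 15.7% of all genes. A list of interferon-gamma response genes was taken since interferon is known to raise Wars. Of the 9 tested, 4 had positive and 5 negative log2 fold changes, with a median of -0.36. Only Psmb8 was called, and fell by 2.28 on the log2 scale (adjusted p = 0.0229). Over all 15365 genes, 461 were called lower. The list's median was 0.04 in the 7 tumors and -0.86 in the 5. Wars itself had a log2 fold change of 0.69 (adjusted p = 0.220).

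Markers of other cell types moved between the groups as well. Summed CPM over 8 osteoblast markers was 65020 to 141100 in the p53-driven and 3610 to 41250 in the Myc-knockin tumors, with 1 marker called lower. The 6 osteoclast markers summed to 1386 to 8110 and 59 to 920 CPM, with 5 called lower. The 7 macrophage markers summed to 697 to 1349 and 273 to 953 CPM, with 2 called lower, and these sums overlapped. The 5 leukocyte markers summed to 391 to 782 and 117 to 313 CPM, with 1 called lower. Over all 15365 genes tested, 461 were called lower. The sums for 8 skeletal muscle markers (14.6 to 5514 and 3.47 to 2187 CPM), 6 erythroid (3.56 to 14.2 and 7.17 to 783), 4 chondrocyte (15.1 to 2661 and 48.7 to 131) and 4 endothelial markers (293 to 431 and 75 to 409) overlapped, with none called among the 8, 1, 3 and 4 markers that passed the count filter. No marker was at 0 in every tumor, and osteoblast markers were present in all 9. The part of cell composition in the synthetase values was not tested.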

How the data were processed

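The paper's methods describe stranded libraries made from tumor RNA after poly(A) enrichment. Rn7sk, which has no poly(A) tail, still stood at 8858 CPM or more in every library but M624 and M664. Whether all libraries were made alike was not tested. The authors trimmed the paired-end reads with Trim Galore, mapped them to mm10 with STAR and counted them per gene with featureCounts, and the deposited table holds raw counts per gene and tumor. The annotation release, the strand setting and the handling of multi-mapping reads are not given in the sources used here, and the exons of 14 of the 37 genes share bases with another gene. Columns carry tumor names that GEO's labels do not list, so tumors were assigned to a group and not to a replicate number. The genotype lists in the study's supporting data name F187, F325, F331, F368, M408 and M624, and M351, M9 and M664 were assigned by the letter M.

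All 55367 genes entered 1 fit: edgeR 4.0.16 (R 4.3.3), quasi-likelihood test, TMM, filterByExpr with a minimum count of 10, Benjamini-Hochberg adjustment over the 15365 genes tested, no covariates, two-sided, called at adjusted p under 0.05 and fold over 1.5 as the study's methods set. DESeq2 1.42.0 and limma 3.58.1 (voom with quality weights) were alternatives, with other scalings, count filters, subtraction of genomic background, removal of satellite genes and omission of tumors. The fitting code was tested on simulated data. Exon lengths came from GENCODE vM21 (55111 identifiers matched) and promoters from RefSeq. Values per tumor were given for called members, the 3 largest fold changes in each compartment, the 3 largest against the cytosolic median, and Myc. The members and lists were chosen with earlier results of these data known. Values of 1 mitochondrial member are not reported here, though it is counted in the list totals. Depth per tumor and its floor are given with the results.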

Additional observations from a re-analysis of the deposited data

Results flagged for a closer look

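Within each group, the highest or lowest tumor was set against the rest for all 37 genes, in log2 CPM. The ratios below are on that scale, and the levels beside them are in CPM. Of the 74 groups of tumors, 5 held a tumor whose gap to its neighbor, as a share of the group's range, passed Dixon's 95% critical value for its number of tumors. Chance alone gives such a gap in about 1 group in 20. Yars2 in M624 had a ratio of 0.87, at 35.7 CPM against 20.7 to 22.2 in the other Myc-knockin tumors. Mars2 in M624 had a ratio of 0.766, at 55.9 CPM against 21.1 to 26.5. Qars in M9 had a ratio of 0.764, at 15.9 CPM against 67.7 to 105.7. Iars2 in M9 had a ratio of 0.715, at 49.4 CPM against 92.8 to 119. Farsb in F368 had a ratio of 0.834, at 23.9 CPM against 42.7 to 47.8 in the other p53-driven tumors.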

How the results depend on the processing

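No paired analysis was possible because the table's columns carry no replicate numbers. Both medians kept their sign and moved by less than the spread between tumors under every alternative run, from 0.31 to 0.71 for the cytosolic list (0.38 to 0.71 with 1 tumor left out) and from 0.71 to 1.45 for the mitochondrial list (0.89 to 1.24 with 1 tumor left out), while the median over all genes lay between -0.04 and 0.97. With all genes of at least 1 count, the median over all genes was 0.97, against 0.50 for the cytosolic and 1.03 for the mitochondrial list. Counts of calls depended on the setting. The cytosolic count, 0 as reported, was 1 with upper-quartile scaling (Farsa higher, adjusted p = 0.0380), 1 with limma-voom (Gars lower at -1.31, adjusted p = 0.0134), 2 with at least 10 counts in every tumor, with DESeq2, with background subtracted and at an adjusted p under 0.10, 6 without F187, M351, M408 and M9, and 0 to 2 with 1 tumor left out. The mitochondrial count, 1 as reported, was 0 with library size alone (Yars2 adjusted p = 0.366) and with all genes of at least 1 count (adjusted p = 0.289), 4 of 13 tested with at least 10 counts in every tumor, 7 with DESeq2 and at an adjusted p under 0.10, 11 without the 4 satellite-rich libraries, and 0 to 3 with 1 tumor left out (2 without M408, 3 without M9). Calls over all genes moved too, from 809 to 8, 6 and 5 without F325, F331 or F368, 136 with library size alone and 2670 with DESeq2. The share of all calls that were higher was 43% as reported, 64.5% with upper-quartile scaling, 59.7% with at least 10 counts in every tumor, 58% with DESeq2, 54.7% with background subtracted and 56.5% in the 5 tumors. Over the 37 genes and their alternatives, 678 of 735 fold changes kept their direction and side of the threshold, 39 passed it anew, 8 no longer passed it and 10 changed sign. The sign changes were in genes near 0: Aars at 0.40 and Sars at 0.18 in the 5 tumors, Iars at 6.061e-05 with at least 10 counts in every tumor, 0.0081 with background subtracted, 0.065 in the 5 tumors and -0.19 to 0.065 with 1 tumor left out (positive without M351), and Yars at -0.39 with limma-voom, -0.36 without M624 and M664, and -0.11 to 0.22 with 1 tumor left out (negative without F331 and without M624). The cause was not tested. Depth limits the low genes most: Ears2 in M9, Sars2 in M351 and Pars2 in F187 had 4 counts each.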
